A study of Mus musculus with 18 samples.

Results

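The kidney transcriptome of mice that received a faecal microbiota transplant labelled AOS while on a high fat diet (HFD+AOS-FMT) was set against that of mice on the high fat diet alone (HFD). These 6 libraries, 3 in each group, were chosen by their treatment labels from 18 kidney RNA libraries of the outbred ICR strain, all from mice aged 10 weeks. The label of HFD+AOS-FMT reads AOS 10 mg/kg with FMT (faecal microbiota transfer from a donor), and it does not say whether the dose was given to the donor or the recipient. A control transplant on the same diet (HFD+control-FMT, 3 libraries) gave a further comparison, because HFD received no transplant and the HFD contrast does not separate the AOS label from the transplant itself. The other 9 libraries were HFD with AOS at 10 mg/kg (HFD+AOS), AOS at 10 mg/kg without the diet, and untreated controls, with 3 each. The abbreviation AOS stands as in the labels, which give neither the diet in detail, its duration, the donors nor the hour of collection. Nothing in the labels ties each library to its own animal, and p-values here therefore describe the spread among libraries, part of which may be technical.

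The kidney keeps a circadian clock in which ARNTL (BMAL1) pairs with CLOCK or NPAS2 to switch on the Per, Cry and Nr1d genes, whose products then switch the activators off. Output factors such as DBP, TEF and HLF pass this rhythm on to transport and metabolic genes, so kidney RNA taken at different hours differs in a large set of genes. The gut microbiota can reach the kidney through metabolites that are absorbed and then filtered or secreted there.

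Values are the submitters' normalized signal per gene, differences are on the log2(signal + 1) scale as HFD+AOS-FMT minus HFD, and replicate values are given in the order 1, 2 and 3. That scale understates the change of genes with low signal, and standard errors against HFD are those of the fit to 18 libraries. Across genes the libraries correlated at r = 0.990 to 0.993 within a group and at 0.982 to 0.991 between the 2 groups. The kidney gene Kap held 18.2% to 22.9% of the summed signal in HFD+AOS-FMT and 20.5% to 22.3% in HFD. Relative depth, read from the steps between low values, was 0.967 to 0.986 in HFD+AOS-FMT and 1.01 to 1.03 in HFD. Markers of other tissues were not even. The sum of 6 testis germ cell markers was 22.9 to 27.0 in HFD+AOS-FMT, against 56.3 and 58.3 in HFD replicates 1 and 2 and 22.1 in HFD replicate 3. The sum of 3 pancreas markers was 0.11 to 0.30 in HFD+AOS-FMT and 0.67 to 180.5 in HFD, and that of 6 white fat markers 116 to 316 in HFD+AOS-FMT and 175 to 467 in HFD. Their part in the results below was not tested, apart from the germ cell batch term given with the counts. Control replicate 3 stands apart from all other libraries. It held 2.48% of its signal in Kap, and its sum of 8 adrenal gland markers was 973, against 1.55 to 4.28 in the other 17 libraries, so its tissue content may differ. It enters the comparison through the spread shared by the 6 groups and through the filter on low signal, which used all 18 libraries in either fit. The counts over all genes are given with control replicate 3 (18 libraries) and without it (17 libraries). With 17 libraries, 3.39% of all genes were called higher and 1.47% lower, and the counts of each list stand against these shares.

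With all 18 libraries, 21 of 12031 genes passed an adjusted p of 0.05 (limma, 0.175% of those tested), 12 higher in HFD+AOS-FMT (0.0997%) and 9 lower (0.0748%). Their log2 differences ran from 0.33 to 0.98 in the genes that rose and from -0.39 to -1.06 in those that fell, with adjusted p from 0.0244 to 0.0489. For all 21 the HFD+control-FMT mean lay between the means of HFD and HFD+AOS-FMT. The median gene lay 0.05 higher in HFD+AOS-FMT, and after quantile normalization, which set that median to -0.01, the split of calls was 3 higher and 6 lower. It was 5 higher and 13 lower when each library was centred on its median. Without control replicate 3, 585 genes passed (4.86%), 408 higher (3.39%) and 177 lower (1.47%), and all 21 were among them. After quantile normalization of the 17 libraries 224 genes were called higher and 215 lower. A germ cell batch term set HFD replicates 1 and 2 and all control libraries, taken to hold more germ cell transcripts, apart from the rest. The fit with this term leaves HFD replicate 3 alone to carry the contrast. All of the 21 and of the 585 genes kept the sign of their difference in that fit. Where libraries do not overlap, as in all 21 and at least 581 of the 585, that sign was fixed in advance. The log2 differences of Ndrg1, Hmox1 and Ddc in that fit were -1.11, -0.93 and -1.03. Leaving 1 library out of the 18 gave 0 genes without HFD+AOS-FMT replicate 1, 2 or 3 or HFD replicate 1, and gave 4 without HFD replicate 2 and 10 without HFD replicate 3.

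**Figure D1:**
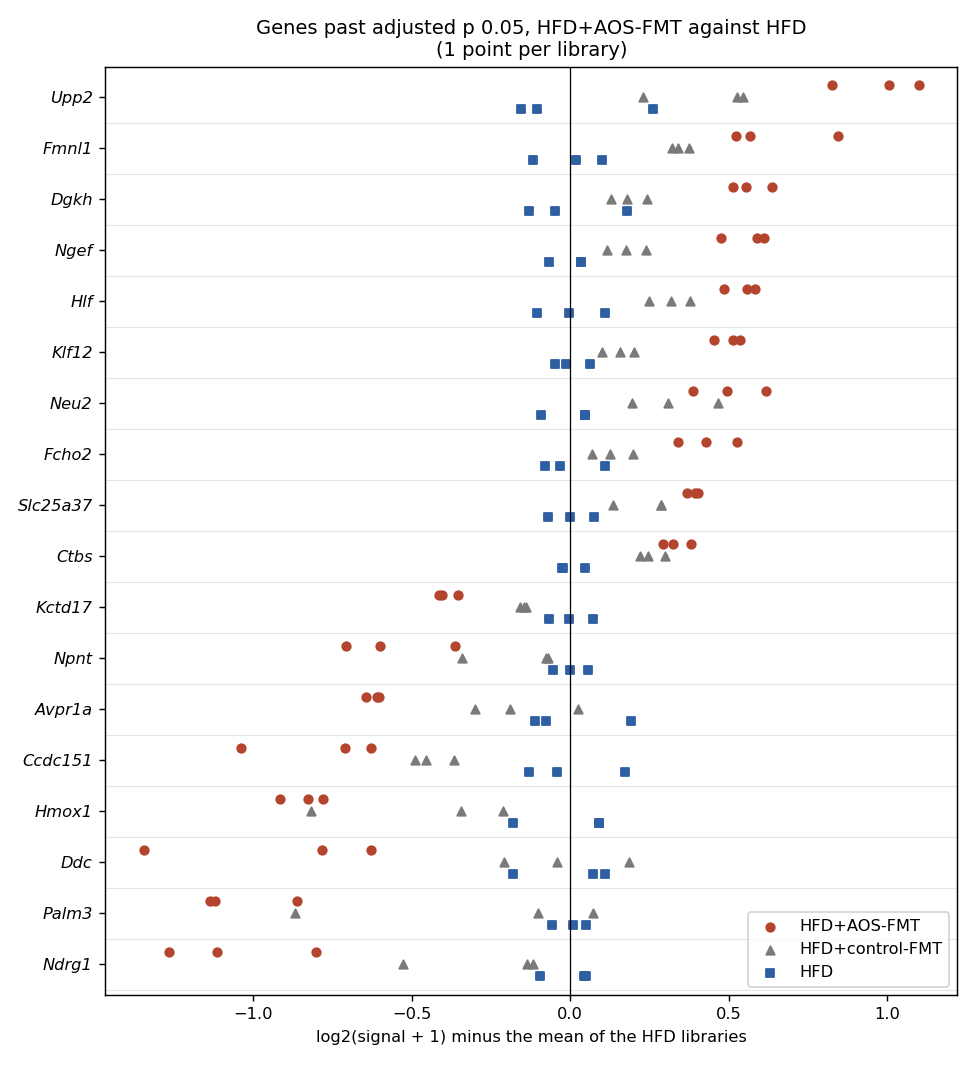
Each point is 1 library of HFD+AOS-FMT (circles), HFD+control-FMT (triangles) or HFD (squares) for 18 of the 21 genes past adjusted p 0.05 with 18 libraries, as log2(signal + 1) minus the mean of the HFD libraries. Circles and squares do not overlap for any gene shown, and the genes were chosen for that difference.

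Among the genes that fell was Hmox1, the enzyme that breaks haem down to iron, biliverdin and carbon monoxide (chromosome 8, 75093621 to 75100589, plus strand). Hmox1 had a signal of 27.9, 26.1 and 28.8 in HFD+AOS-FMT, against 53.5, 44.1 and 53.5 in HFD. It was lower in every HFD+AOS-FMT library than in any HFD library (log2 difference -0.84 ± 0.13 SE, adjusted p = 0.0244). The HFD+control-FMT libraries stood at 39.3, 43.2 and 28.0, and replicate 3 of these lay within the range of HFD+AOS-FMT. Ndrg1, a gene induced by hypoxia and cell stress (chromosome 15, 66929318 to 66969640, minus strand), had 720.5, 799.9 and 993 in HFD+AOS-FMT, against 1787, 1624 and 1795 in HFD. Its 2 groups were far apart (log2 difference -1.06 ± 0.16 SE, adjusted p = 0.0244). In HFD+control-FMT Ndrg1 stood at 1577, 1596 and 1203, above every HFD+AOS-FMT library. Slc25a37, mitoferrin, which carries iron into mitochondria (chromosome 14, 69241848 to 69285112, minus strand), was higher, with 12.8, 13.1 and 13.0 in HFD+AOS-FMT against 9.65, 10.2 and 9.15 in HFD (log2 difference 0.39 ± 0.07 SE, adjusted p = 0.0489).

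The list of 24 haem and iron genes, 23 of them tested, had 1 member higher and 1 lower with 18 libraries, and 1 higher and 2 lower with 17. The added member was the ferritin light chain Ftl1, an iron store, at 4269, 3259 and 3905 in HFD+AOS-FMT against 5096, 5389.7 and 5837 in HFD (adjusted p = 0.00949 with 17 libraries and 0.0657 with 18). HFD had the highest mean of all groups, 5441. Ftl1 averaged 4272 in untreated controls, 4351 in AOS without the diet, 4317 in HFD+control-FMT and 3633 in HFD+AOS. Ferritin has processed gene copies, so the share of reads that belong to Ftl1 is uncertain. The median of the list was 0.08, close to the 0.05 of all genes. Of 19 tested hypoxia inducible genes, Ndrg1 was the 1 that fell, and with 17 libraries 2 rose. The carbonic anhydrase Car9 stood at 3.53, 3.08 and 5.91 in HFD+AOS-FMT against 1.23, 2.07 and 1.21 in HFD (adjusted p = 0.0216 with 17 libraries, 0.0705 with 18). In HFD+control-FMT Car9 had 2.33, 3.96 and 3.87. Bnip3, a mitophagy receptor, averaged 119 ± 5.77 in HFD+AOS-FMT and 98.7 ± 1.76 in HFD (SD, n = 3 each, limma adjusted p = 0.0184 with 17 libraries and 0.320 with 18).

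Ddc, the aromatic amino acid decarboxylase with which the proximal tubule makes dopamine (chromosome 11, 11814101 to 11898144, minus strand), had 21.2, 18.9 and 12.5 in HFD+AOS-FMT, against 35.1, 29.3 and 36.0 in HFD. It fell with a log2 difference of -0.92 ± 0.16 SE (adjusted p = 0.0436), and HFD+AOS-FMT replicate 3 was the lowest. Of 9 tested genes on the list of dopamine and monoamine metabolism, 2 fell with 18 libraries, where 0.0748% of all genes fell. With 17 libraries 3 fell and 1 rose, where 1.47% of all genes fell and 3.39% rose. The riser was Hnmt, which methylates histamine, at 10.6 ± 0.876 in HFD+AOS-FMT and 7.43 ± 0.540 in HFD (SD, n = 3 each, limma adjusted p = 0.0412 with 17 libraries and 0.243 with 18). In HFD+control-FMT Hnmt averaged 9.84. Renbp, the renin binding protein, is 1 of the 3 that fell, though it is not itself a gene of monoamine metabolism. It stood at 56.9 ± 8.63 in HFD+AOS-FMT and 77.5 ± 2.52 in HFD (SD, n = 3 each, limma adjusted p = 0.0360 with 17 libraries and 0.117 with 18).

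A vasopressin receptor and a matrix protein were among the others that fell. Avpr1a, the V1a vasopressin receptor (chromosome 10, 122448499 to 122453452, plus strand), had a low signal of 1.67, 1.68 and 1.61 in HFD+AOS-FMT against 2.77, 2.86 and 3.65 in HFD (log2 difference -0.62 ± 0.11 SE, adjusted p = 0.0436). Npnt, nephronectin, a basement membrane protein and integrin ligand (chromosome 3, 132881745 to 132950291, minus strand), had 25.4, 30.2 and 23.5 in HFD+AOS-FMT against 37.6, 39.0 and 40.7 in HFD (log2 difference -0.56 ± 0.10 SE, adjusted p = 0.0489). Both were lower in every HFD+AOS-FMT library. The 11 tested genes of vasopressin signalling and water transport had a median of 0.44, with 10 differences above 0, where 62.4% of all genes lay above 0. With 17 libraries Avpr1a fell and Aqp3 rose. Palm3, a paralemmin of the plasma membrane, averaged 4.89 ± 0.642 in HFD+AOS-FMT and 11.1 ± 0.459 in HFD (SD, n = 3 each). Ccdc151, a factor of outer dynein arm assembly in cilia, averaged 1.11 ± 0.304 in HFD+AOS-FMT and 2.65 ± 0.404 in HFD. Kctd17, an adaptor of cullin ubiquitin ligases, averaged 41.1 ± 0.968 in HFD+AOS-FMT and 54.2 ± 2.64 in HFD.

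Among the genes that rose, Upp2, a uridine phosphorylase that splits uridine to uracil (chromosome 2, 58567298 to 58792971, plus strand), had the greatest log2 difference. Its signal was 11.9, 10.4 and 12.7 in HFD+AOS-FMT, against 4.76, 4.97 and 6.68 in HFD (0.98 ± 0.15 SE, adjusted p = 0.0244), with no overlap. The untreated controls stood at 8.28, 10.85 and 9.75, above every HFD library and overlapping HFD+AOS-FMT. Upp2 was the only 1 of 18 tested pyrimidine and nucleotide genes that passed, with 18 libraries or with 17. Fmnl1, a formin that builds actin filaments (chromosome 11, 103171107 to 103198901, plus strand), had 31.9, 30.8 and 38.9 in HFD+AOS-FMT against 21.5, 22.8 and 19.5 in HFD (0.64 ± 0.10 SE, adjusted p = 0.0244). The signalling genes Dgkh, a diacylglycerol kinase, and Ngef, a guanine nucleotide exchange factor, rose, at 4.38 ± 0.235 and 23.7 ± 1.22 in HFD+AOS-FMT against 2.65 ± 0.412 and 15.8 ± 0.658 in HFD (SD, n = 3 each). Neu2, a cytosolic sialidase, stood at 12.1 ± 1.06 in HFD+AOS-FMT and 8.23 ± 0.499 in HFD. Neu2 and Ngef overlap on opposite strands of chromosome 1 by 63982 bases, and the strand setting of the libraries is not given, so reads of these genes cannot be told apart where they overlap. Klf12, a transcriptional repressor, stood at 3.70 ± 0.135 in HFD+AOS-FMT and 2.32 ± 0.133 in HFD. Fcho2, an early factor of clathrin-mediated endocytosis, stood at 24.5 ± 1.64 in HFD+AOS-FMT and 17.96 ± 1.31 in HFD. Ctbs, the lysosomal chitobiase, stood at 28.2 ± 0.904 in HFD+AOS-FMT and 22.2 ± 0.656 in HFD.

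Clock genes passed more often than genes at large. All gene lists were chosen with earlier results of these data known, so such shares describe the lists and test nothing. Of 28 clock regulators and output genes 27 were tested, 1 passed with 18 libraries (Hlf) and 13 with 17 (48.1% of the tested members, against 4.86% of all genes), 10 higher and 3 lower. For 17 of the 27 the libraries of HFD+AOS-FMT and HFD did not overlap, against 25.2% of all genes. The 3 that fell with 17 libraries were activators. Arntl (chromosome 7, 113207465 to 113314126, plus strand) had 1.30, 1.86 and 1.96 in HFD+AOS-FMT against 10.9, 8.64 and 10.0 in HFD (log2 difference -2.01 ± 0.39 SE, adjusted p = 0.00239 with 17 libraries and 0.0619 with 18). Npas2, its partner, had 0.96, 1.24 and 1.11 in HFD+AOS-FMT against 7.26, 5.89 and 6.96 in HFD (-1.87 ± 0.39 SE, adjusted p = 0.00121 with 17 libraries and 0.0705 with 18). Clock, the other partner, moved less, with 5.30, 6.18 and 4.83 in HFD+AOS-FMT against 7.48, 6.38 and 7.20 in HFD (-0.32 ± 0.10 SE, adjusted p = 0.0413 and 0.166).

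Of the repressors of the loop, Per2, Per3, Cry2, Nr1d2 and Ciart rose with 17 libraries. Ciart, a repressor of the ARNTL complex (chromosome 3, 95878503 to 95882251, minus strand), had 8.13, 7.78 and 5.85 in HFD+AOS-FMT against 0.59, 0.81 and 0.92 in HFD (log2 difference 2.21 ± 0.69 SE, adjusted p = 0.000245 with 17 libraries and 0.184 with 18). Per3 (chromosome 4, 151003652 to 151044665, minus strand) had 5.94, 6.93 and 6.21 in HFD+AOS-FMT against 1.36, 1.74 and 1.48 in HFD (1.54 ± 0.37 SE, adjusted p = 0.000928 and 0.105). Per2 had 7.20, 9.91 and 11.3 in HFD+AOS-FMT against 3.38, 2.65 and 3.76 in HFD (1.28 ± 0.30 SE, adjusted p = 0.00526 and 0.0910). For none of these did the groups overlap. Cry2 averaged 5.36 ± 0.114 in HFD+AOS-FMT and 2.85 ± 0.377 in HFD, and Nr1d2, a haem-binding receptor that represses Arntl, 28.5 ± 2.26 in HFD+AOS-FMT and 11.4 ± 2.83 in HFD (SD, n = 3 each, limma adjusted p = 0.00104 and 0.00750 with 17 libraries and 0.249 and 0.154 with 18).

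Among the output factors Dbp had the greatest difference. Dbp (chromosome 7, 45705088 to 45710203, plus strand) had 97.8, 68.4 and 63.8 in HFD+AOS-FMT against 3.26, 10.2 and 3.36 in HFD, a log2 difference of 3.69 ± 0.88 SE (adjusted p = 0.00648 with 17 libraries and 0.101 with 18). Its partners among the PAR bZIP factors moved less. Tef had 102, 93.6 and 97.1 in HFD+AOS-FMT against 43.1, 57.2 and 43.8 in HFD (1.02 ± 0.24 SE, adjusted p = 0.000455 and 0.0910). Hlf (chromosome 11, 90336536 to 90390895, minus strand) had 31.0, 33.2 and 32.6 in HFD+AOS-FMT against 20.2, 23.7 and 21.8 in HFD (0.54 ± 0.07 SE, adjusted p = 0.0244 with 18 libraries). The deubiquitinase Usp2 and the mitotic kinase Wee1, known clock outputs, averaged 53.6 ± 3.67 and 6.04 ± 1.22 in HFD+AOS-FMT against 35.6 ± 1.09 and 2.90 ± 0.357 in HFD (SD, n = 3 each, limma adjusted p = 0.00594 and 0.00410 with 17 libraries and 0.119 and 0.208 with 18). Dbp overlaps Sphk2 on the opposite strand by 737 bases, and Per3 lies within the span of Camta1 on the same strand.

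The same genes also differed within groups. In control replicate 3, the library with adrenal gland markers, Dbp stood at 90.6 and Arntl at 2.71, near HFD+AOS-FMT, while control replicates 1 and 2 had 2.76 and 6.90 for Dbp and 12.5 and 10.1 for Arntl. HFD+control-FMT replicate 3 had 43.7 for Dbp and 3.39 for Arntl, against 10.4 and 13.1 for Dbp and 8.42 and 8.51 for Arntl in its replicates 1 and 2. The labels give no hour of collection. A difference in that hour and the transplant cannot be told apart for any gene of this comparison.

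**Figure D2:**
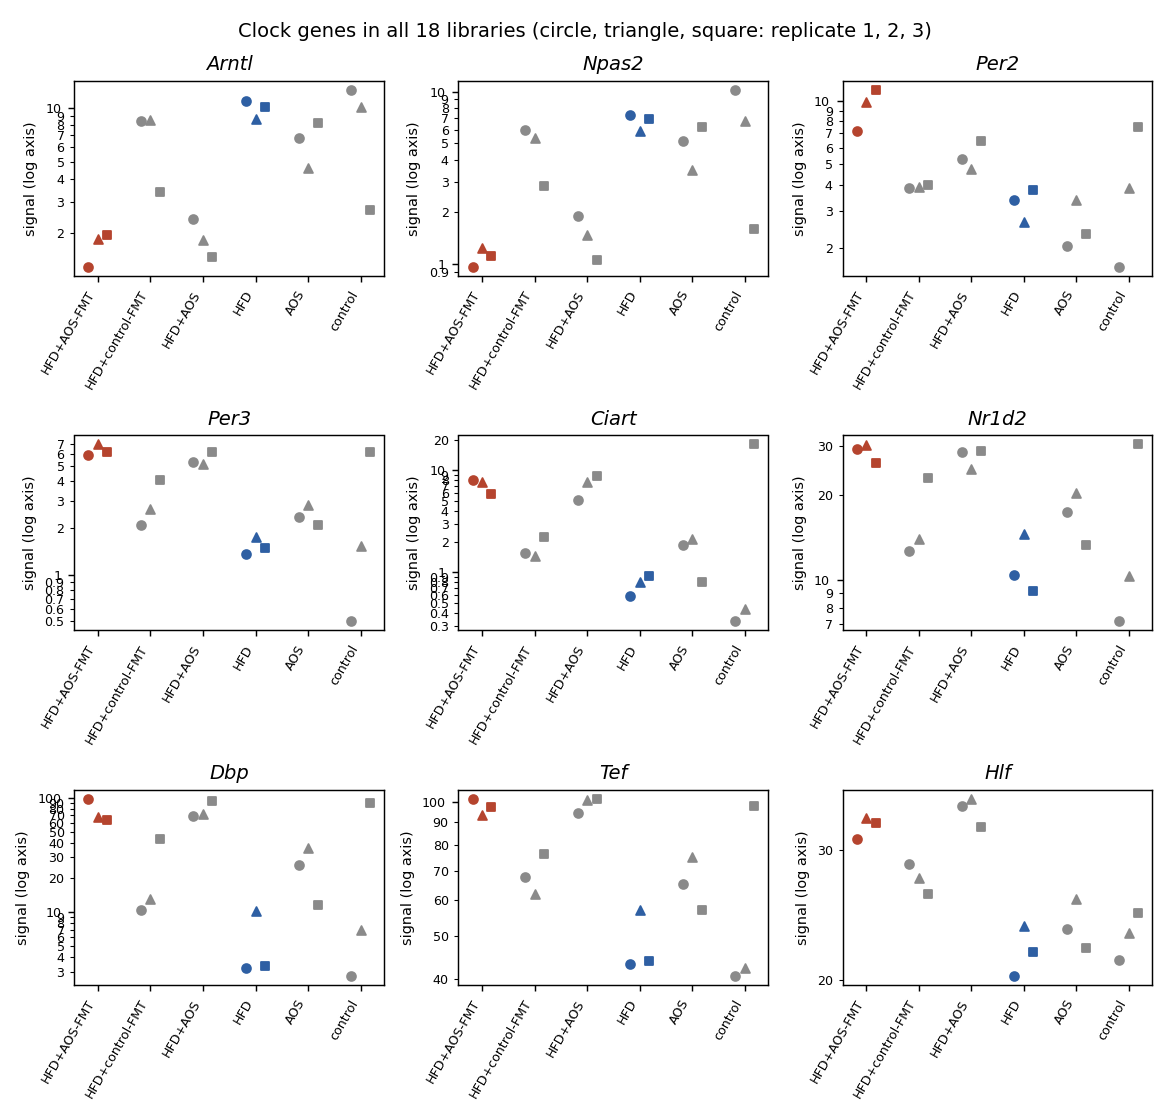
Signal of 9 clock genes on log axes in all 18 libraries by group, with replicates 1, 2 and 3 as circles, triangles and squares, HFD+AOS-FMT at the left in red and HFD in blue. Arntl and Npas2 are low and the other 7 genes high in HFD+AOS-FMT relative to HFD, and Hlf is the gene for which control replicate 3, at 24.6, lies nearest to control replicates 1 and 2, at 21.2 and 23.2.

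The promoters of Ciart and Per3 are shown because they hold repeated copies of the motifs through which the loop and its outputs are known to act. In RefSeq sequence on GRCm38.p6 the 250 bases before the annotated start of Ciart (chr3:95882229-95882478, minus strand) hold 3 E-boxes, CACGTG, the site of the activators, in capitals, which begin 116, 58 and 44 bases before the start.
Ciart: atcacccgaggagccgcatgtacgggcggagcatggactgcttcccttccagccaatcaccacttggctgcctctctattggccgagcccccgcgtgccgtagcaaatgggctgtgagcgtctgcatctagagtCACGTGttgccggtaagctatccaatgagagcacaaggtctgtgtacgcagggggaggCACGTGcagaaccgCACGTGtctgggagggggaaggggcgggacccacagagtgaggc
The same window of Per3 (chr4:151044666-151044915, minus strand) holds 2 copies of the D-box TTATGNAA, the site of DBP, TEF and HLF, in capitals, 205 and 158 bases before the start.
Per3: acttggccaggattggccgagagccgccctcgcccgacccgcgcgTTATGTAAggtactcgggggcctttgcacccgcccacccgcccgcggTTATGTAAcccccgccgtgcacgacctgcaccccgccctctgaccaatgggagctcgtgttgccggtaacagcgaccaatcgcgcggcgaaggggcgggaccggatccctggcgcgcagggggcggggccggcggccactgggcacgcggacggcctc
Windows of 250 bases before to 50 after the start were searched on both strands. Of the 13 clock genes that passed with 17 libraries, 11 had a window, and an E-box was in 2 (Ciart and Tef), against 7.15% of all 32851 windows. The D-box was in 1 (Per3), against 3.38% of all windows. The element AGGTCA, bound by ROR and NR1D receptors, was in 3 (Arntl, Clock and Nr1d2), against 16.3%. The E-box contains the core ACGTG read by hypoxia factors. These matches describe the letters only.

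Chaperones of the endoplasmic reticulum, which fold secreted and membrane proteins and are induced when unfolded protein builds up, included 8 genes that fell with 17 libraries. Of 21 tested genes of this list none passed with 18 libraries, and with 17 those 8 fell and 1 rose, where 1.47% of all genes fell and 3.39% rose. The groups did not overlap for 12 lower and 3 higher members, against 7.86% and 17.3% of all genes. The median of the list was -0.25, against 0.05 for all genes. Calr, calreticulin, a calcium-binding chaperone for glycoproteins (chromosome 8, 84841850 to 84846934, minus strand), had 467, 468 and 413 in HFD+AOS-FMT against 655, 699 and 672 in HFD (log2 difference -0.59 ± 0.14 SE, adjusted p = 0.000746 with 17 libraries and 0.0910 with 18). Hsp90b1, the HSP90 of this compartment (chromosome 10, 86690209 to 86705509, minus strand), had 204, 223 and 182 in HFD+AOS-FMT against 279, 266 and 267 in HFD (-0.42 ± 0.13 SE, adjusted p = 0.0267 and 0.188). Neither overlapped between the groups.

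Canx, the membrane-bound relative of calreticulin, averaged 107 ± 3.24 in HFD+AOS-FMT and 125 ± 1.34 in HFD (SD, n = 3 each). The disulphide isomerases Pdia3 and Pdia6 averaged 269 ± 24.7 and 89.2 ± 6.46 in HFD+AOS-FMT against 328 ± 5.12 and 117 ± 7.15 in HFD. The co-chaperones Dnajb11, Dnajc3 and Sdf2l1 averaged 55.0 ± 2.70, 31.4 ± 1.34 and 5.12 ± 1.66 in HFD+AOS-FMT against 71.0 ± 0.649, 37.4 ± 0.736 and 9.33 ± 0.716 in HFD. With 17 libraries the limma adjusted p of these 6 genes ran from 0.00526 for Dnajb11 to 0.0480 for Canx, and with 18 from 0.126 to 0.256. Herpud1, a membrane protein of degradation from this compartment, rose, with 160.0, 188 and 164 in HFD+AOS-FMT against 121, 110.5 and 125 in HFD (0.52 ± 0.20 SE, adjusted p = 0.00541 with 17 libraries and 0.265 with 18). Control replicate 3 had 389 for Calr and 184 for Herpud1, close to HFD+AOS-FMT, against 587 and 669 for Calr and 81.7 and 101 for Herpud1 in control replicates 1 and 2.

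**Figure D3:**
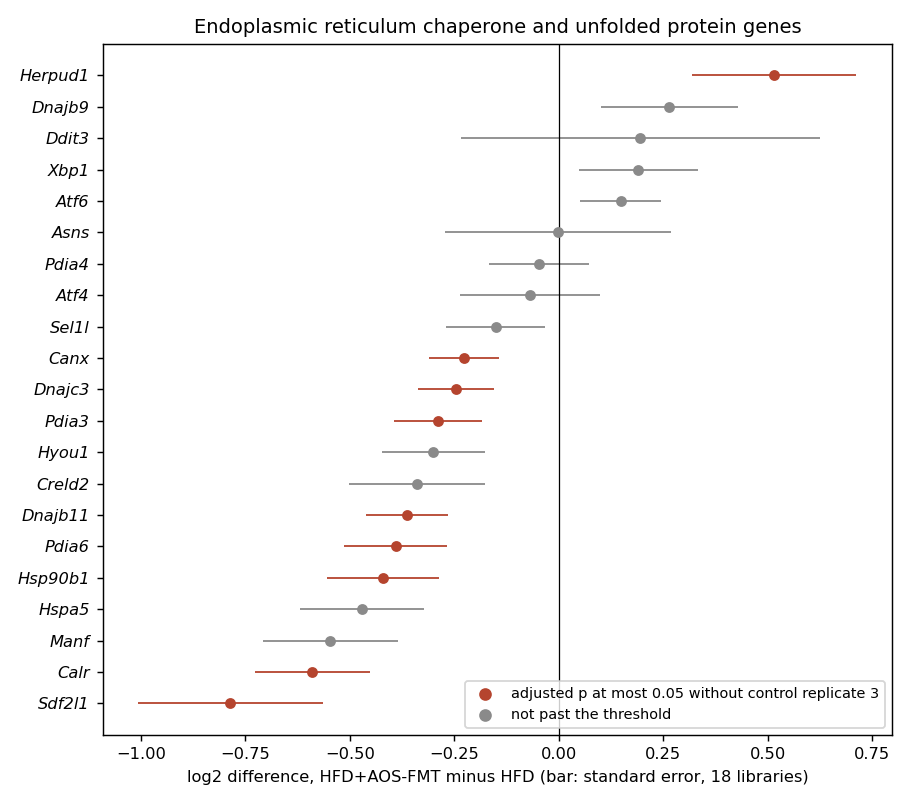
Log2 difference, HFD+AOS-FMT minus HFD, of the 21 tested genes of the endoplasmic reticulum list, with standard errors of the fit to 18 libraries. Genes past adjusted p 0.05 without control replicate 3 are red, 8 of them below 0 and Herpud1 above.

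The endoplasmic reticulum stress element, CCAAT and CCACG with 9 bases between them, through which ATF6 with NF-Y is known to induce these chaperones, was in 39 of the 32851 promoter windows (0.119%). Among the 9 genes of the list that passed with 17 libraries, all with a window, 5 held it. Among the 9 with a window that did not pass 2 held it, Hspa5 and Creld2, so the element was not confined to genes that passed. The sites of the 5 are shown with the fixed letters in capitals, each read in the direction of the element, because these 5 genes share them.
Calr, chr8:84847075-84847093, plus strand: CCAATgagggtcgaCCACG
Canx, chr11:50325800-50325818, minus strand: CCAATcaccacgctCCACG
Dnajc3, chr14:118937827-118937845, plus strand: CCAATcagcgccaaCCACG
Hsp90b1, chr10:86705533-86705551, plus strand: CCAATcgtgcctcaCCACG
Pdia6, chr12:17266491-17266509, plus strand: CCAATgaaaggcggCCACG
Hsp90b1 holds a further copy, and its 250 bases before the start (GRCm38.p6, chr10:86705445-86705694, minus strand) carry the elements 212 and 107 bases before it, in capitals.
Hsp90b1 promoter: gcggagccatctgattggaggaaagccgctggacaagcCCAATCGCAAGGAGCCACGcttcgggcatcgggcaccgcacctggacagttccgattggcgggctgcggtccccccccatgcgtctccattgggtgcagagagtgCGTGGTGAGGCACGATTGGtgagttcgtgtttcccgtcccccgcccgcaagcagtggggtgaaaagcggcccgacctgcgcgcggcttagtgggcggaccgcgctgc
Such elements are known from this family of genes, and the match says nothing of which factor was active.

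Outside these lists, the greatest changes with 17 libraries were named by size. Ppard, the fatty acid receptor PPAR delta (chromosome 17, 28232700 to 28301474, plus strand), had 5.79, 7.45 and 6.07 in HFD+AOS-FMT against 32.4, 28.3 and 30.4 in HFD (log2 difference -2.08 ± 0.48 SE, adjusted p = 0.000428 with 17 libraries and 0.0889 with 18). HFD+control-FMT had 19.5, 14.5 and 11.4, and control replicate 3 had 9.47 against 54.7 and 61.6 in control replicates 1 and 2. Cdkn1a, the cyclin-dependent kinase inhibitor p21, had 2.70, 4.78 and 2.81 in HFD+AOS-FMT against 9.97, 7.37 and 8.62 in HFD (adjusted p = 0.0237 and 0.398). It was at 82.6 in control replicate 3. Slc16a1, the lactate and ketone carrier MCT1, averaged 7.22 ± 0.997 in HFD+AOS-FMT and 16.5 ± 2.06 in HFD (SD, n = 3 each, limma adjusted p = 0.0200 with 17 libraries and 0.0728 with 18). Slc25a22, a mitochondrial glutamate carrier, averaged 8.93 ± 1.15 in HFD+AOS-FMT and 16.5 ± 3.10 in HFD, and Ypel2 3.91 ± 0.477 in HFD+AOS-FMT and 8.90 ± 0.551 in HFD. Oaz3, the antizyme of testis germ cells, was listed at 0 in the 3 HFD+AOS-FMT libraries and stood at 1.94, 2.32 and 0.09 in HFD, with the germ cell markers of HFD replicates 1 and 2.

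Beside Car9 and Upp2, the risers named by size outside the clock were Cpeb3, a regulator of mRNA translation, with 14.8, 11.9 and 11.3 in HFD+AOS-FMT against 3.92, 6.81 and 5.06 in HFD (log2 difference 1.14 ± 0.27 SE, adjusted p = 0.00131 with 17 libraries and 0.0910 with 18), and 3 genes tied to matrix or podocytes. P3h2, a prolyl hydroxylase of basement membrane collagen, averaged 30.5 ± 7.72 in HFD+AOS-FMT and 15.2 ± 1.54 in HFD (SD, n = 3 each). Col27a1, a fibrillar collagen, had 16.9, 16.2 and 32.1 in HFD+AOS-FMT against 9.31, 10.5 and 11.4 in HFD, and replicate 3 alone held the highest level. Ddn, dendrin of the podocyte slit diaphragm, averaged 1.98 ± 0.570 in HFD+AOS-FMT and 0.593 ± 0.208 in HFD. With 18 libraries none of the genes from Ppard to Ddn named here passed, apart from Upp2. The limma adjusted p of the others ran from 0.0705 for Car9, Ypel2 and Col27a1 to 0.398 for Cdkn1a.

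Of 11 tested podocyte genes 3 rose and 1 fell (Npnt) with 17 libraries, and with 18 Npnt alone passed, and the list's median was 0.32. Nphs1, nephrin of the slit diaphragm, had 2.33, 5.29 and 2.71 in HFD+AOS-FMT against 1.05, 1.33 and 1.86 in HFD (adjusted p = 0.0237 with 17 libraries and 0.220 with 18). HFD+AOS-FMT replicate 2 was the highest. Ptpro, a podocyte phosphatase, averaged 2.23 ± 0.193 in HFD+AOS-FMT and 1.16 ± 0.173 in HFD (SD, n = 3 each, limma adjusted p = 0.00514 with 17 libraries and 0.165 with 18). The sum of 3 podocyte markers, Nphs1 among them, was 18.7, 32.3 and 14.6 in HFD+AOS-FMT against 10.4, 13.8 and 17.9 in HFD. These ranges overlap, and more glomeruli in a piece and more RNA per podocyte cannot be told apart.

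Egf, the growth factor precursor of the distal nephron (chromosome 3, 129677565 to 129755316, minus strand), had 236, 296 and 276 in HFD+AOS-FMT against 141, 189 and 203 in HFD (log2 difference 0.61 ± 0.13 SE, adjusted p = 0.0120 with 17 libraries and 0.0705 with 18). It was the 1 of 11 tested EGF family genes that passed with 17 libraries, where 0 passed with 18, and the sum of 4 markers of the loop and distal tubule was 1082 to 1677 in HFD+AOS-FMT and 769 to 1150 in HFD. Of 16 tested genes of the loop and distal tubule none passed with 17 or 18 libraries. Aqp3, the basolateral water channel of the collecting duct, averaged 51.9 ± 10.7 in HFD+AOS-FMT and 36.8 ± 2.87 in HFD (SD, n = 3 each, limma adjusted p = 0.0325 with 17 libraries and 0.195 with 18) and was the 1 of 16 collecting duct genes that passed with 17 libraries, where 0 passed with 18. The sum of collecting duct markers, which includes Aqp3 itself, was 124 to 215 in HFD+AOS-FMT and 87.3 to 138 in HFD.

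In the proximal tubule 3 of 20 tested transport genes rose and 1 fell with 17 libraries, where 3.39% of all genes rose and 1.47% fell, and 0 passed with 18. Slc27a2, a carrier and activator of very long chain fatty acids, had 1710.4, 1662 and 1618 in HFD+AOS-FMT against 1234, 1209 and 1240.5 in HFD (log2 difference 0.44 ± 0.09 SE, adjusted p = 0.00153 with 17 libraries and 0.0671 with 18). The groups were far apart relative to the spread within them. The sodium-proton exchanger Slc9a3 averaged 33.5 ± 4.61 in HFD+AOS-FMT and 23.4 ± 3.08 in HFD, and the cystine transporter subunit Slc3a1 296 ± 4.83 in HFD+AOS-FMT and 251 ± 5.73 in HFD (SD, n = 3 each). The amino acid exchanger Slc7a8 fell, at 45.7 ± 3.72 in HFD+AOS-FMT and 66.4 ± 3.08 in HFD. The sum of 4 proximal tubule markers overlapped, at 122156 to 168191 in HFD+AOS-FMT and 146920 to 162524 in HFD.

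In lipid and sugar metabolism the genes called passed with 17 libraries and 0 passed with 18. Ppara, the receptor that drives fatty acid oxidation, had 16.3, 18.04 and 16.9 in HFD+AOS-FMT against 11.5, 10.2 and 11.2 in HFD (log2 difference 0.60 ± 0.11 SE, adjusted p = 0.00648 with 17 libraries and 0.0528 with 18). It was the 1 of 22 tested genes of fatty acid oxidation that passed, and none of 17 genes of fatty acid synthesis did. Of 25 cholesterol genes 2 rose and 2 fell with 17 libraries, where 3.39% of all genes rose and 1.47% fell. The groups did not overlap for 2 higher and 5 lower members of that list, against 17.3% and 7.86% of all genes. The median of the list was -0.0057. The synthesis enzyme Cyp51, a sterol demethylase, and the cholesterol exporter Abca1 rose. They averaged 116 ± 12.6 and 4.73 ± 0.345 in HFD+AOS-FMT against 82.9 ± 7.16 and 2.49 ± 0.665 in HFD. Fdps and Msmo1, also synthesis enzymes, fell, at 13.8 ± 2.10 and 20.6 ± 3.75 in HFD+AOS-FMT against 21.2 ± 1.47 and 30.01 ± 1.95 in HFD (SD, n = 3 each). In HFD+control-FMT Cyp51 and Abca1 averaged 104 and 3.37, and Fdps and Msmo1 13.4 and 21.5. The libraries of 7 of 20 genes of glycolysis and gluconeogenesis were lower with no overlap, where 7.86% of all genes were. Another 2 were higher with no overlap, where 17.3% of all genes were. On this list 14 differences were below 0, where 62.4% of all genes lay above 0. Of these 20 Aldoa and Pgam1 fell with 17 libraries (limma adjusted p = 0.00797 and 0.0462, against 0.127 and 0.170 with 18). They averaged 735 ± 19.5 and 259.7 ± 14.7 in HFD+AOS-FMT against 868 ± 27.7 and 300.1 ± 10.4 in HFD. Pck1, the entry enzyme of gluconeogenesis, rose, with 1055, 1013 and 1379 in HFD+AOS-FMT against 556, 685 and 865 in HFD (limma adjusted p = 0.0450 with 17 libraries and 0.231 with 18). In HFD+control-FMT Pck1 averaged 1103, Aldoa 772 and Pgam1 285.

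Of 20 tested antioxidant genes, catalase (Cat) rose, at 486 ± 26.9 in HFD+AOS-FMT and 417 ± 10.5 in HFD, and Prdx1, a peroxiredoxin, fell, at 772 ± 42.9 in HFD+AOS-FMT and 906 ± 27.3 in HFD (SD, n = 3 each, limma adjusted p = 0.0360 and 0.0481 with 17 libraries and 0.211 and 0.237 with 18). In HFD+control-FMT Cat averaged 467 and Prdx1 904. Lama5, a laminin chain of the glomerular basement membrane, averaged 7.97 ± 0.746 in HFD+AOS-FMT and 5.54 ± 0.953 in HFD, and of 22 matrix genes it rose and Npnt fell with 17 libraries, where 3.39% of all genes rose and 1.47% fell. Lama5 had an adjusted p of 0.0108 with 17 libraries and 0.364 with 18, and Npnt alone passed with 18. Hspe1, the mitochondrial chaperonin partner, was the 1 of 14 heat shock genes that passed with 17 libraries, where 0 passed with 18. It stood at 271 ± 30.3 in HFD+AOS-FMT and 351 ± 8.33 in HFD (SD, n = 3 each, limma adjusted p = 0.0286 with 17 libraries and 0.166 with 18). With 17 or 18 libraries limma called none of 14 tested inflammation genes, 17 macrophage and complement genes, 18 interferon stimulated genes, 24 oxidative phosphorylation genes, 16 immediate early genes, 10 renin-angiotensin genes, 11 endothelial genes, 11 mesangial and smooth muscle genes, 13 androgen responsive genes or 4 B and T cell genes. The white fat list, none of whose 11 tested members passed, had a median of -0.77, with the fat markers given above.

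**Figure D4:**
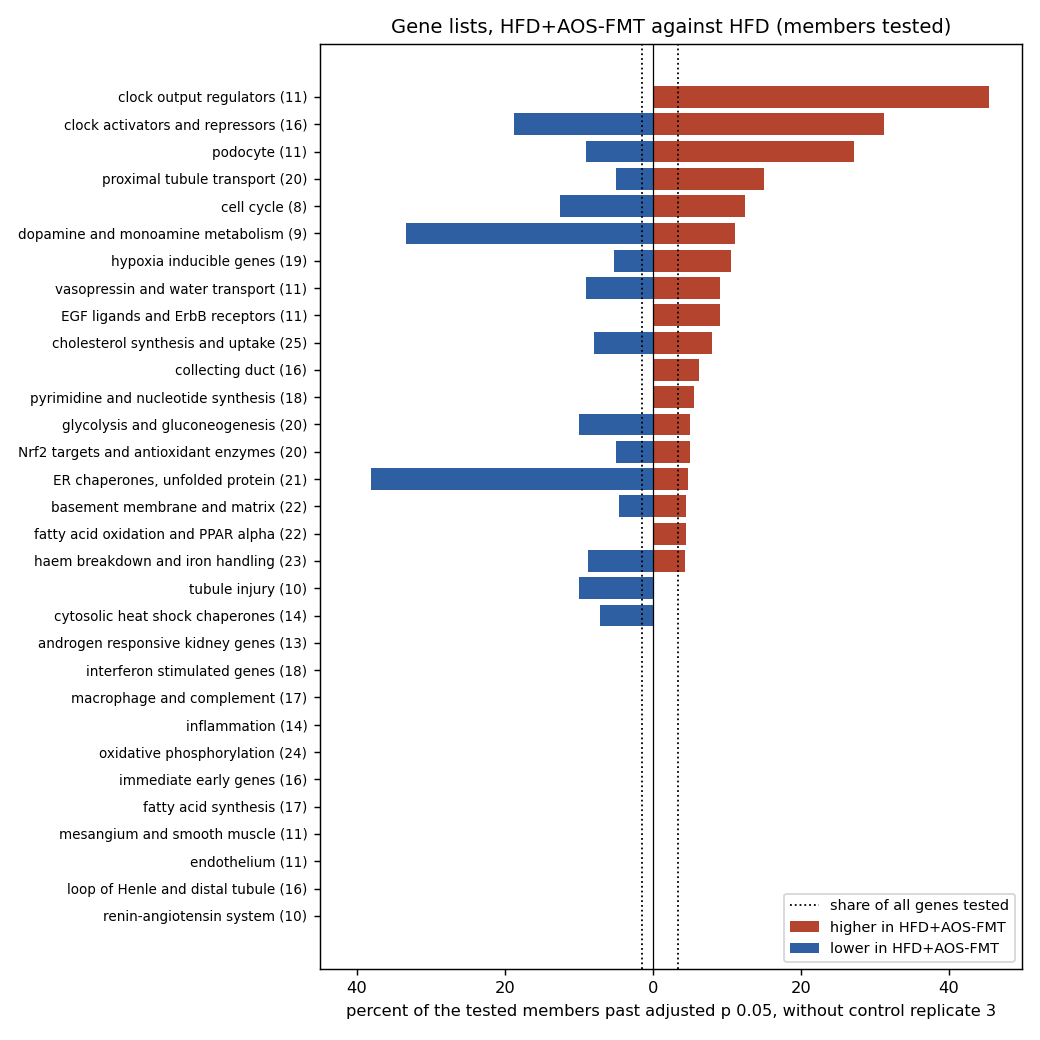
Percent of the tested members of each list past adjusted p 0.05 without control replicate 3, higher (right, red) or lower (left, blue) in HFD+AOS-FMT than in HFD, with the number tested in brackets. Dotted lines mark the shares of all genes, 3.39% higher and 1.47% lower, and the endoplasmic reticulum chaperones, with 8 of 21 lower, and the clock lists, with 10 of 27 higher, lie well outside them.

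The direct contrast of both transplants on one diet, HFD+AOS-FMT against HFD+control-FMT, uses the same HFD+AOS-FMT libraries as the comparison above. With 18 libraries limma called 0 genes (845 had an unadjusted p under 0.05, and 602 would by chance). With 17 libraries it called 14 (0.116%), 9 higher (0.0748%) and 5 lower (0.0416%) in HFD+AOS-FMT. Clock genes were 5 of the 14. Npas2 had 0.96, 1.24 and 1.11 in HFD+AOS-FMT against 6, 5.41 and 2.83 in HFD+control-FMT (log2 difference -1.40 ± 0.22 SE, adjusted p = 0.0303). Ciart had 8.13, 7.78 and 5.85 in HFD+AOS-FMT against 1.54, 1.45 and 2.24 in HFD+control-FMT (1.59 ± 0.20 SE, adjusted p = 0.0158). Cry2, Usp2 and Wee1 averaged 5.36 ± 0.114, 53.6 ± 3.67 and 6.04 ± 1.22 in HFD+AOS-FMT against 3.39 ± 0.393, 34.3 ± 3.00 and 2.90 ± 0.426 in HFD+control-FMT (SD, n = 3 each, limma adjusted p = 0.0303 for each).

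Outside the clock, Ddc was lower, at 21.2, 18.9 and 12.5 in HFD+AOS-FMT against 28.7, 38.0 and 32.4 in HFD+control-FMT (log2 difference -0.90 ± 0.15 SE, adjusted p = 0.0383 with 17 libraries and 0.203 with 18). Ggct, the glutathione cycle enzyme gamma-glutamylcyclotransferase, averaged 24.4 in HFD+AOS-FMT and 37.3 in HFD+control-FMT (-0.60 ± 0.10 SE, limma adjusted p = 0.0303). Epb41, the band 4.1 membrane skeleton protein, averaged 39.6 in HFD+AOS-FMT and 31.4 in HFD+control-FMT (0.32 ± 0.05 SE, limma adjusted p = 0.0303). Mdm4, an inhibitor of p53, averaged 10.8 in HFD+AOS-FMT and 7.91 in HFD+control-FMT (0.41 ± 0.07 SE, limma adjusted p = 0.0383). Without HFD+AOS-FMT replicate 2 as well, 0 genes passed, and without HFD+AOS-FMT replicate 1 as well, 65 did. Neither Hmox1 nor Ndrg1 passed against HFD+control-FMT, with log2 differences of -0.38 and -0.80 (adjusted p = 0.211 and 0.0617 with 17 libraries). HFD+control-FMT against HFD had 0 genes past the threshold with 18 libraries and 0 with 17 (limma, 541 and 1044 at an unadjusted p under 0.05).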

How the data were processed

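Kidney RNA of ICR mice was extracted from frozen tissue and 1 µg of total RNA entered each Illumina library, per the labels' protocols. Bowtie 0.12.2 and the build mm10 are named in the submitters' processing notes. The authors deposited 1 table of normalized signal, by gene symbol, with 2 decimals. Its unit, counting program and annotation are not given in the labels. Column sums varied by 3.50% (coefficient of variation, 18 libraries) and by 0.815% once multiplied by transcript length, so the signal was treated as normalized for length and depth. Read numbers are unknown, and no counting interval is given. Of 19545 entries, 26 symbols turned into dates and 1 repeated entry were left out.

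Genes with a signal of at least 1 in 3 or more of 18 libraries (12031) were fitted as log2(signal + 1) in 1 model with 6 groups (limma 3.58.1, R 4.3.3, trend and robust estimation, two-sided, Benjamini-Hochberg adjustment over all genes, threshold 0.05). The script was tested on simulated data. Members and gene lists were chosen with earlier results of these data known. The fit without control replicate 3, a planned leave-one-out alternative, was given its place beside the other after the data were seen.

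Named genes were every gene called with 18 libraries, the 12 greatest increases and 12 greatest decreases called with 17 libraries, without overlap and with a mean of at least 1 in a group (predicted genes passed over, 2 of them), and up to 4 members per list by p. Lists with no called member are given by counts, and lists of other tissues by summed level. Clock and chaperone genes beyond the 4 per list, and those named against HFD+control-FMT, were added after their values were seen. A few genes picked by this rule are left out here. Gene coordinates are from GENCODE M21 on GRCm38, and promoter sequences from RefSeq on GRCm38.p6, with chromosome 18 left out of the motif search. The strand setting of the libraries is not given, and reads of near-identical copies or overlapping genes may be shared.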

Additional observations from a re-analysis of the deposited data

How the results depend on the processing

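Against HFD, 21 genes passed with 18 libraries. The count moved to 9 after quantile normalization, 13 with a pseudocount of 5, 13 with neither trend nor robust estimation, 641 with array weights, 166 with only the 2 groups, 1 with the germ cell batch term, and 556 without all 3 control libraries. With 17 libraries it was 439 after quantile normalization. Leaving 1 library out of the 18 gave 0 to 585 genes, with 55 without control replicate 1, 10 without AOS replicate 1 or 2, 11 without AOS replicate 3, HFD+AOS replicate 2 or HFD+control-FMT replicate 1 or 2, and, from the 17, 555, 261 and 202 without HFD+AOS-FMT replicate 1, 2 and 3 and 150, 345 and 318 without HFD replicate 1, 2 and 3. Against HFD+control-FMT, where 0 passed with 18 libraries, the count was 18 with array weights, 1 with only the 2 groups, 18 without all 3 control libraries and 21 after quantile normalization of the 17 libraries. Leaving 1 library out of the 18 gave 0 to 14, with 2 without HFD+control-FMT replicate 3. From the 17, leaving out a further library gave 0 to 65, with 1 without HFD+AOS-FMT replicate 3 and 20, 19 and 13 without HFD replicate 1, 2 and 3. The other settings (median centring, a pseudocount of 0.1, no filter, a filter at 5) gave 14 to 26 genes against HFD and 0 against HFD+control-FMT. With the germ cell batch term the log2 difference turned to -0.0089 for Hspa8 and -0.2117 for Krt18, neither of which passed. The causes of these moves were not tested.

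The replicate numbers are not stated to mark shared animals or days, and deviations of same-numbered libraries correlated at 0.0985, -0.1291 and -0.1593 between HFD+AOS-FMT and HFD. The replicate number as a block gave 15 genes against HFD with 18 libraries, 12 of them among the 21, and 0 against HFD+control-FMT. With 17 libraries the block gave 491 and 21.

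Control replicates 1 and 3 are the shallowest libraries, with relative depths of 0.909 and 0.89. Genes with a signal near 1, such as Avpr1a, Ccdc151 and Npas2, carry more counting error than genes of high signal.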

Other observations

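Levels in HFD+AOS, labelled AOS at 10 mg/kg with no transplant, are side values, since this group shares HFD with the comparison above. Ndrg1 stood at 1207, 973 and 810.4 in HFD+AOS, Hmox1 at 19.2, 21.1 and 20.7, Ddc at 24.5, 23.3 and 21.9, and Upp2 at 10.5, 10.7 and 15.5. Dbp stood at 69.7, 72.3 and 92.9 in HFD+AOS and Arntl at 2.41, 1.84 and 1.48. In mice given AOS without the diet Dbp stood at 26.0, 36.5 and 11.5 and Arntl at 6.75, 4.59 and 8.24.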
